A study of Rattus norvegicus with 9 samples.

Results

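The transcriptome of dorsal root ganglia (DRG) after spared nerve injury (SNI) was compared with that of sham-operated rats, gene by gene and in both directions. The members were the 14305 genes, of 20194 in the deposited table, that had an FPKM (a level counted in fragments and scaled to transcript length and library size) of at least 1 in any of the 9 libraries of the series. The comparison itself used 6 libraries, 3 sham and 3 SNI. The animals were adult male Sprague Dawley rats. SNI ties off and transects all but one of the terminal branches of the sciatic nerve, sparing the sural, so that injured and spared sensory neurons lay side by side in the ganglia collected on the operated side. SNI day 5 was the day of catheter implantation and the time point chosen for sampling. The sham and SNI libraries were both titled as controls of G15, an antagonist of the G protein-coupled oestrogen receptor GPER, which was dissolved in DMSO and given intrathecally in the third group (SNI + G15). What vehicle the sham and SNI rats received was not further stated. The study's own texts differ on how many rats per group were used for sequencing, and the labels do not tie a library to a rat.

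The DRG holds the cell bodies of the primary sensory neurons, each wrapped by satellite glial cells, together with myelinating Schwann cells, resident macrophages, vessels and a connective tissue sheath. Cutting a peripheral axon is known to shift its neuron from transmission to regrowth: transcription factors such as Atf3 and Jun, growth-associated proteins and a new set of neuropeptides are switched on, many channels and transmitter genes are turned down, glia react and macrophages gather around the cell bodies.

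Estimated counts summed to between 18500205 and 18648695 per library, a range of 0.80%, and all 6 libraries were used. The tissue label held against its defining markers. In sham libraries, Rbfox3 (the neuronal nuclear antigen NeuN) lay between 81.2 and 94.4 FPKM, Mbp (myelin) between 923 and 963 and Fabp7 (satellite glia) between 50.3 and 56.2. Ckm, a muscle gene, lay at 1.08 to 1.42 FPKM, and none of the 5 tested skeletal muscle genes was called. The authors' estimated counts are fractional where reads were divided among features, and they were whole in all 6 libraries for 9088 members (63.5%). Values of a gene with fractional counts in any library are uncertain, and such genes are called shared-read genes. Besides those marked below, they included Serpina3n, Tuba1a, Tubb3, Chga, Kcnab2, Snap25, Spr, Fmo2, Mki67, Lyve1, Ngfr, Gbp2, Gzmb, Mfap4, Mmp3, Il6 and Ndufs3.

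A large part of the transcriptome differed between SNI and sham ganglia, mostly by small amounts. Of the 14305 genes, 6537 (45.7%) passed edgeR's quasi-likelihood test at a Benjamini-Hochberg adjusted p of 0.05, and these are the genes called here. Of all tested genes, 3336 (23.3%) rose and 3201 (22.4%) fell. The sham and SNI values did not overlap for 7878 genes (55.1%), of which those with SNI above made up 28.1% of all genes and those with SNI below 26.9%, and they did not overlap for 6394 of the 6537 called genes. The median absolute log2 fold change of called genes was 0.34, and 4520 of them (69.1%) changed by less than 0.5 on the log2 scale.

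Large changes ran mostly upwards. Of all tested genes, 702 (4.91%) were called and changed by 1 or more on the log2 scale. Among them, 582 (4.07% of those tested) rose by at least 1 on the log2 scale, and 120 (0.839%) fell by at least 1. With limma on log2 of FPKM plus 1, 294 rose and 39 fell by that much. Beyond 3 on the log2 scale there were 83 rises and 8 falls. The genes that rose by at least 1 were low in sham ganglia, with a median of 1.05 FPKM against 9.10 over all members. The filter favours this contrast, because a gene below 1 FPKM in every sham library was kept only if another library reached 1. Those that rose by at least 1 took 0.865% of all sham FPKM and 2.67% of all SNI FPKM. Genes that fell by at least 1 had a median of 2.92 FPKM in sham. In SNI, 22 genes had at least 5 FPKM in every library after staying below 1 in every sham library, and 1 gene, Ndufa10l1, did the reverse.

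The direction also differed with the level of expression. Of the 868 genes with a mean of at least 100 FPKM, 38.0% fell and 19.7% rose. Of the 4044 genes between 1 and 5 FPKM, 14.2% fell and 25.7% rose. The median standard error of the log2 fold change was 0.042 in the first group and 0.117 in the second, so that smaller changes could be called among abundant genes. The reason for the difference in direction was not tested.

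**Figure D1:**
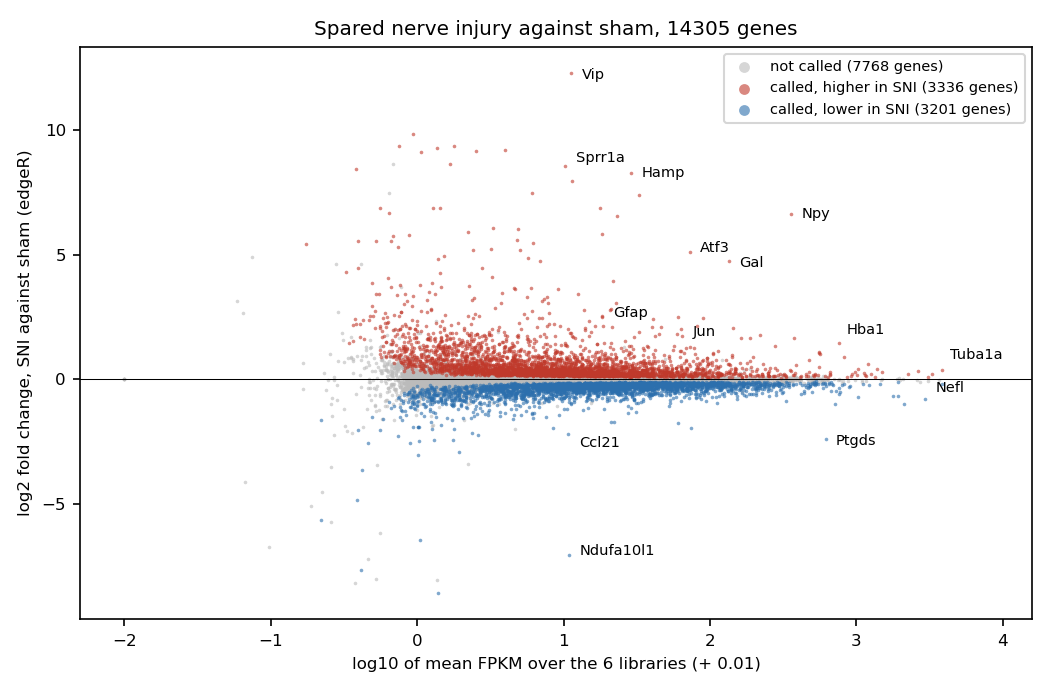
Log2 fold change of SNI against sham (edgeR) plotted against the log10 of the mean FPKM over the 6 libraries plus 0.01, 1 point per gene. The 3336 genes called higher are red, the 3201 called lower are blue and the 7768 not called are grey; large rises lie mostly at low to middle levels, and the fitted values of genes near 0 counts in one group, such as Vip, depend on the fit's prior count.

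Several of the 12 largest rises were of genes at or near 0 in sham ganglia. Vip, which encodes vasoactive intestinal peptide, had no count in any sham library and 21.9, 24.1 and 21.6 FPKM in the SNI libraries, or 612, 672 and 602 counts. Against a floor of 3 counts per sham library, its mean count was at least 209.6-fold higher in SNI. Sprr1a, a small proline-rich protein of regrowing axons, had 0, 0.07 and 0.07 FPKM in sham and 21.6, 19.5 and 20.3 in SNI. Its summed counts, 2 in sham and 901 in SNI, gave a ratio of 450.4 with an exact (Clopper-Pearson) 95% interval of 124.3 to 3725, which covers counting error only. Hamp, the iron hormone hepcidin, rose from 0.33, 0 and 0.16 FPKM to 55.5, 61.2 and 56.0, a count ratio of 352.6 (interval 120.3 to 1713). Crisp3, a cysteine-rich secretory protein, rose from 7 summed counts to 1884, a ratio of 269.1 (interval 130.4 to 670.3). For each of these genes every SNI library lay far above every sham library.

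Npy stood apart among these genes for the level it reached. Its product, neuropeptide Y, is made by few intact sensory neurons. Npy was at 3.18, 9.33 and 8.65 FPKM in sham and at 726, 692 and 715 in SNI, a log2 fold change of 6.62 (SE 0.16, adjusted p = 3.3e-10). Among called genes with a symbol, it had the third largest gain in FPKM, after Tuba1a and Hba1. Npy was a shared-read gene in 5 of the 9 libraries. Serpina3n, a secreted protease inhibitor of the acute phase, was at 0.60, 0.36 and 0.16 FPKM in sham and at 66.9, 63.2 and 63.9 in SNI (log2 fold change 7.39, SE 0.14). Csrp3, a LIM protein known from muscle, went from 0.46, 0.26 and 0.20 to 33.3, 36.8 and 35.4 FPKM (log2 fold change 6.86, SE 0.15). Reg3b, a secreted lectin, went from 0.29, 0.71 and 0.43 to 46.0, 45.3 and 46.5 FPKM (log2 fold change 6.54, SE 0.14). Stac2, an adaptor of calcium channels, was at 0.46 to 0.82 FPKM in sham and 34.5 to 38.4 in SNI. The remaining genes of the 12 largest rises, Lce1f, Ptprh and Cldn4, reached at least 10.8, 6.07 and 9.19 FPKM in every SNI library, and Lce1f and Cldn4 were shared-read genes.

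The 12 largest falls were taken among called genes with a symbol, no overlap and a mean of at least 5 FPKM in sham. Apart from Ndufa10l1, these genes changed less than those that rose most. Ptgds, which encodes the prostaglandin D synthase of the leptomeninges and glia, fell from 984, 1099 and 1017 FPKM to 208, 203 and 197 (log2 fold change -2.38, SE 0.05, adjusted p = 9.6e-11). Ccl21, a chemokine of lymphatic vessels and lymphoid tissue, fell from 16.4, 21.3 and 15.2 to 3.95, 3.94 and 3.83 FPKM (log2 fold change -2.20, SE 0.14). Pmp2, a myelin lipid-binding protein, fell from 119, 127 and 106 to 33.6, 29.5 and 29.6 FPKM (log2 fold change -1.95, SE 0.07). Cartpt, the precursor of the CART peptides, fell from 10.5, 12.5 and 10.4 to 4.21, 3.92 and 3.70 FPKM. The extracellular matrix genes Mfap4 and Col2a1 fell by 1.95 and 1.47 on the log2 scale, and the transporters Slc6a20 and Slc6a13 by 1.54 and 1.42, of which the last pair were shared-read genes. Cpxm2, Grxcr2 and Fmo2 fell by 1.60, 1.44 and 1.41. Ndufa10l1 showed the lowest fold change, from 20.2, 22.1 and 22.6 FPKM to 0.30, 0 and 0.20, but it was a shared-read gene in 8 of the 9 libraries, and its value is uncertain.

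**Figure D2:**
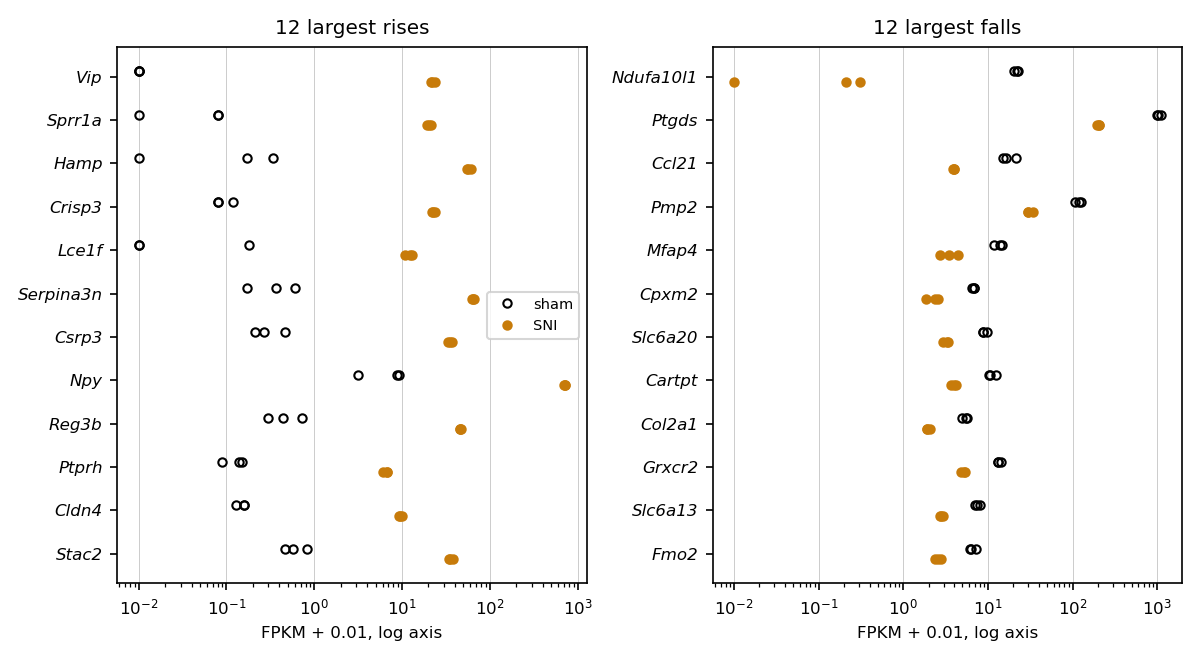
FPKM plus 0.01 on a log axis in each of the 3 sham (open circles) and 3 SNI (filled circles) libraries for the 12 largest rises and 12 largest falls. The groups do not overlap for any of the 24 genes, which the naming rule required, and the SNI values of each risen gene lie close together while the sham values of several are at or near 0.

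In a ranking of called genes with a symbol by change in FPKM, the largest gain and the largest loss were both of cytoskeletal genes. Tuba1a, a neuronal alpha-tubulin, gained most, from 3224, 3328 and 3253 FPKM to 4418, 4414 and 4303. Tubb3 (neuronal beta-tubulin) rose from between 2215 and 2394 to between 2983 and 3006 FPKM, and Stmn2, a regulator of axonal microtubules, from between 1139 and 1213 to between 1581 and 1622. Spp1 (osteopontin) and Apod (apolipoprotein D) rose by 0.90 and 0.61 on the log2 scale. Nefl, which encodes the light neurofilament chain, lost most FPKM in this ranking, from 3640, 3673 and 3742 to 2213, 2135 and 2258 (log2 fold change -0.77, SE 0.03, adjusted p = 7.3e-09). Nefm and Nefh, of the medium and heavy chains, fell by 0.67 and 0.66. Other neuronal intermediate filament genes rose: Prph (peripherin) was at 1310, 1370 and 1346 FPKM in sham and 1694, 1620 and 1671 in SNI (log2 fold change 0.28), and Ina (alpha-internexin), with shared reads, rose by 0.26. The groups did not overlap for any of these tubulin and intermediate filament genes. In bulk ganglia, fewer cells of a type and less RNA per cell cannot be told apart.

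The list of regeneration-associated genes had the highest share of risen members among the neuronal lists. Of its 40 members, all tested, 37 rose, 1 fell and 2 were not called. Their median log2 fold change was 1.28, against 0.00 over all members. Beside Sprr1a and Csrp3, Ankrd1, a transcriptional cofactor, rose from 0.18 FPKM in each sham library to 9.61, 9.28 and 9.18, and Il24, a cytokine of the interleukin-10 family, from 0.18, 0.17 and 0.08 to 6.93, 6.30 and 5.36. Rgs4, which shortens G protein signalling, was the member that fell, by 0.29 on the log2 scale. The injury transcription factor Atf3, a shared-read gene, was at 3.61 to 4.30 FPKM in sham and at 138 to 143 in SNI. Of the 6 tested Jun and Fos family genes in the immediate early list, 5 rose. Jun was at 27.9, 28.1 and 31.7 FPKM in sham and 100, 96.4 and 101 in SNI, Fos rose by 2.04 on the log2 scale, and Fosl2, Junb and Fosl1 rose by 1.11, 1.03 and 0.98. Jund, the most abundant of them, overlapped between the groups at 102 to 127 FPKM in sham and 103 to 116 in SNI and was not called (adjusted p = 0.57). Of the 17 tested immediate early genes, 11 rose and none fell, with a median log2 fold change of 0.54. The integrated stress response, through which cells lower translation and raise amino acid supply, had 22 tested genes. Of these, 10 rose (45.5%, against 23.3% of all members) and 6 fell (27.3%, against 22.4%), with a median of 0.10. Trib3, a pseudokinase of this pathway, rose by 1.14, while Chac1 and Psat1, which act in glutathione breakdown and serine synthesis, fell by 0.72 and 0.56.

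Neuropeptide genes split. Of 16 tested members of the injury-induced list, 9 rose (56.25%, against 23.3% of all members) and 6 fell (37.5%, against 22.4%). The median log2 fold change was 1.59, also with Vip set at its bound. Besides Vip and Npy, Gal (galanin) rose from 8.26, 9.62 and 10.4 FPKM to 247, 261 and 274, and Ucn (urocortin) from 0.30, 0.49 and 0.30 to 13.7, 9.19 and 10.3. Crh, Nmb and Chga fell by 0.77, 0.71 and 0.64 on the log2 scale. The peptides that nociceptors make at rest moved less, with a median of -0.02 over 8 tested members. Among them, 1 rose (12.5%, against 23.3% of all members) and 3 fell (37.5%, against 22.4%). Calca, which encodes CGRP and is a shared-read gene, was at 545, 596 and 545 FPKM in sham and 589, 593 and 556 in SNI, so that the groups overlapped (log2 fold change 0.01, SE 0.04, adjusted p = 0.83). Tac1 (substance P) fell by 0.22 and Sst (somatostatin) by 0.53 on the log2 scale, and Nppb, the itch peptide BNP, rose by 1.35.

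Potassium and sodium channel genes mostly fell and calcium channel genes did so less often, with single members going far the other way. Of 60 tested potassium channel genes, which set resting potential and repolarization, 41 fell (68.3%, against 22.4% of all members) and 7 rose, and the median log2 fold change was -0.38. Kcns1, a modifier subunit of Kv2 channels, fell from 39.2, 41.2 and 41.6 FPKM to 21.6, 21.9 and 21.4 (adjusted p = 4.5e-08). Kcnab2, the most abundant member, fell from between 355 and 369 FPKM to between 248 and 260. Kcnmb4, a subunit of BK channels, rose by 0.88 on the log2 scale. Of 13 sodium channel genes, 7 fell (53.85%) and 3 rose (23.1%, against 23.3% of all members), with a median of -0.23. Scn10a and Scn11a, the nociceptor channels Nav1.8 and Nav1.9, fell by 0.39 and 0.42, while Scn3a (Nav1.3), low in adult neurons, was at 1.58 to 1.62 FPKM in sham and 2.54 to 2.82 in SNI. All of these sodium channel values came from shared-read genes. Of 19 calcium channel genes, 7 fell (36.8%, against 22.4% of all members), 3 rose (15.8%, against 23.3%) and 9 were not called. Their median was -0.14, and their summed FPKM was 429.5 to 456.1 in sham and 467.7 to 478.6 in SNI. Cacna2d1, which encodes the alpha-2-delta subunit bound by gabapentin, rose from 20.6, 18.9 and 18.7 FPKM to 68.2, 71.1 and 70.0 (log2 fold change 1.82, SE 0.04, adjusted p = 2.4e-10), whereas its relative Cacna2d3 fell by 0.38.

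Receptor genes gave a mixed picture, and release genes mostly fell. Of 8 tested GABA-A receptor subunits, 2 rose (25%, against 23.3% of all members) and 3 fell (37.5%, against 22.4%), with a median of -0.03. Gabra5 rose from 3.21, 3.23 and 3.0 FPKM to 11.7, 12.2 and 11.1 (log2 fold change 1.82). Gabra2, with shared reads, was at 39.1, 36.1 and 36.9 FPKM in sham and 37.1, 36.6 and 38.7 in SNI and was not called (log2 fold change -0.04, SE 0.04, adjusted p = 0.53). Of 22 opioid, cannabinoid and monoamine receptor genes, 10 fell (45.5%) and 6 rose (27.3%, against 23.3% of all members). The serotonin-gated channel subunits Htr3a and Htr3b fell by 0.47 and 0.68, and Cnr1, a cannabinoid receptor with shared reads, by 0.63. Of 28 genes of synaptic vesicle release, 17 fell and 5 rose. Snap25 and Vamp1, proteins of the fusion machinery, fell by 0.45 and 0.60 on the log2 scale, and Syt4, a synaptotagmin, rose from 75.7, 69.3 and 66.6 FPKM to 156, 162 and 156.

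Genes that mark sensory neuron subtypes fell in 22 of 43 tested members and rose in 7, with a median of -0.17. Htr1d and the C-fibre gene Th fell by 0.76 and 1.18 on the log2 scale. Gfra1, a receptor for glial cell line-derived factor with shared reads, rose from between 39.4 and 40.3 FPKM to between 105 and 107. Of 22 genes expressed by neurons at large, 12 fell and 2 rose. Their summed FPKM was 15240 to 15540 in sham and 12470 to 12910 in SNI. Most of this drop was in the neurofilament genes Nefl and Nefm, whose mean FPKM changed by -1483 and -834.6. Falls were not limited to neurofilaments. Rbfox3 went from between 81.2 and 94.4 FPKM in sham to between 58.7 and 61.6 in SNI (log2 fold change -0.56). Camk2a, another of the 22, fell by 0.57. Uchl1, the most abundant of the 22, was not called and overlapped between the groups (2956 to 3100 FPKM in SNI, 3044 to 3185 in sham). Oxidative phosphorylation genes fell in 41 of 60 members (68.3%, against 22.4% of all members) and none rose. Their median log2 fold change was -0.20, and no member fell by more than 0.43 (Ndufs3). The summed FPKM of this list varied within groups, at 11860 to 13500 in sham and 10840 to 11770 in SNI. In the synthesis of tetrahydrobiopterin, the cofactor of nitric oxide and monoamine synthesis, Gch1, its first enzyme, rose from 0.38, 0.59 and 1.35 FPKM to 6.31, 6.19 and 7.57, Spr and Qdpr rose by 0.96 and 0.42, and the inhibitory partner Gchfr fell by 0.46. The call of Gchfr was lost with DESeq2, with the replicate block and in 4 of the 6 fits that left out 1 library (without sham replicate 2 or 3 or SNI replicate 2 or 3), at an adjusted p of up to 0.107.

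**Figure D3:**
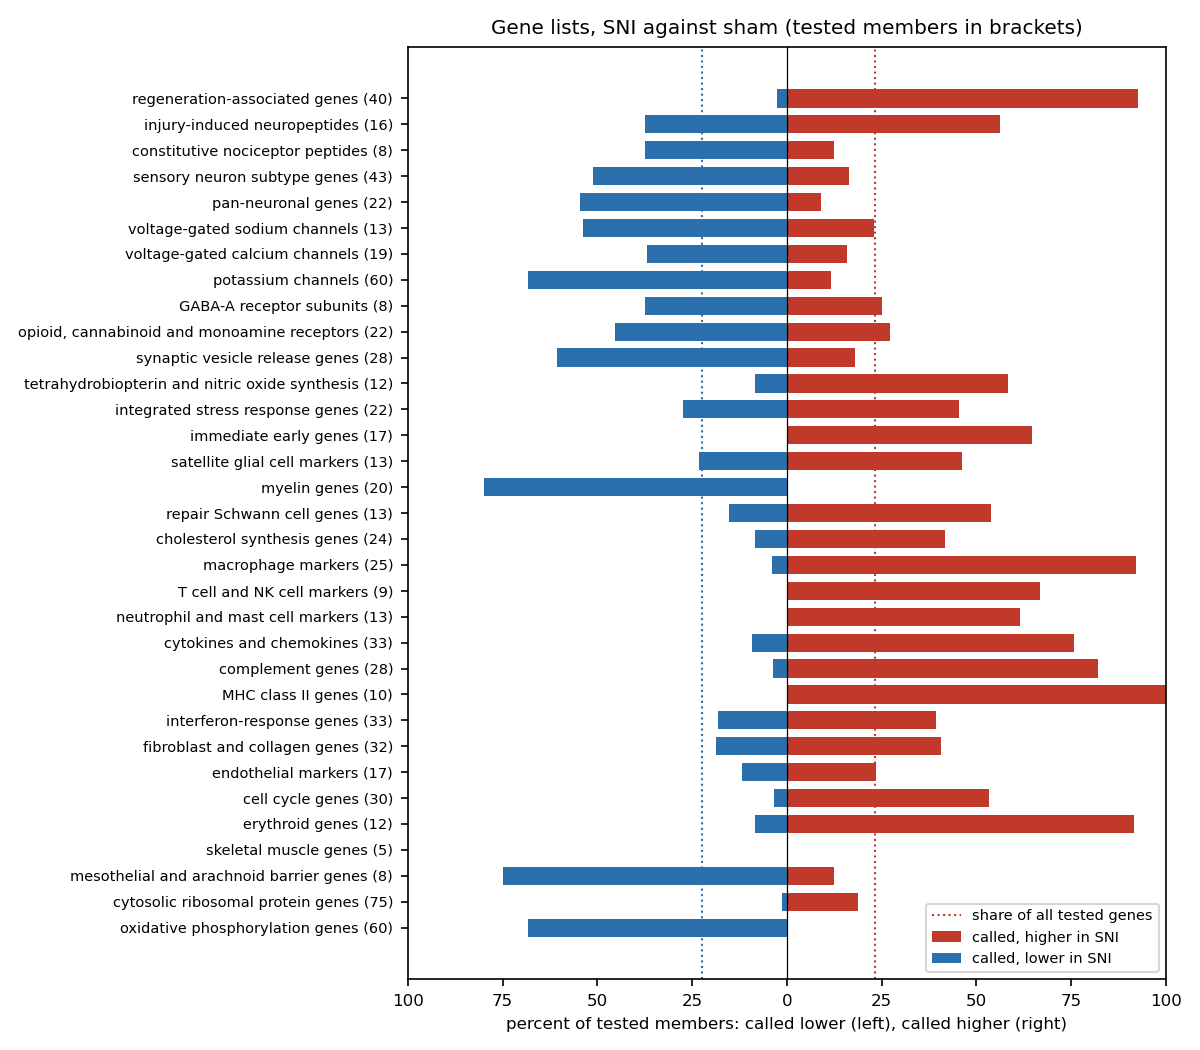
Percent of each list's tested members (number in brackets) called higher in SNI to the right in red and lower to the left in blue, for the 33 lists with at least 5 tested members. Dotted lines mark the shares among all 14305 genes, 23.3% and 22.4%; regeneration, macrophage and MHC class II lists lie far to the right, and potassium channel, myelin and oxidative phosphorylation lists to the left.

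Myelin genes fell as a group. Of 20 members, 16 fell, none rose, and the median log2 fold change was -0.69. Mbp, the gene of myelin basic protein, fell from 923, 963 and 931 FPKM to 485, 479 and 486 (log2 fold change -0.98, SE 0.03, adjusted p = 1.6e-09), with no overlap between the groups. Pmp22, a peripheral myelin protein, fell by 0.68 on the log2 scale. The summed FPKM of the list was 5873 to 6008 in sham and 3341 to 3405 in SNI. Genes of repair Schwann cells rose in 7 of 13 tested members (53.85%, against 23.3% of all members) and fell in 2 (15.4%, against 22.4%). Their median was 0.21, and their summed FPKM overlapped between the groups (441.5 to 467.3 in sham, 441.7 to 457.6 in SNI). Bdnf, a neurotrophin that injured neurons also make, rose from 3.65, 3.08 and 3.18 FPKM to 9.66, 10.2 and 9.04, and Shh rose by 0.31, while Ngfr fell by 0.22. Satellite glial markers split, with 6 rises (46.2%, against 23.3% of all members) and 3 falls (23.1%, against 22.4%) among 13. Gfap, the filament of reactive glia, rose from 5.01, 6.39 and 4.75 FPKM to 32.5, 31.2 and 30.6 (log2 fold change 2.52, SE 0.09), and Fabp7 rose by 0.45. In cholesterol synthesis, 10 of 24 genes rose and 2 fell.

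Immune genes rose over a wide front. Of 25 tested macrophage markers, 23 rose and 1 fell, the median log2 change was 1.07, and their summed FPKM was 661.9 to 733.7 in sham and 1423 to 1491 in SNI. Cd68, a lysosomal macrophage protein, rose from 9.45, 9.50 and 8.07 FPKM to 25.9, 24.1 and 23.9, and Csf1r, the receptor on which macrophages depend, rose by 0.92 on the log2 scale. Lyve1, a marker of vessel-associated macrophages and lymphatic vessels, fell by 0.51. All 10 tested MHC class II genes rose, by 0.92 to 3.07. Cd74, the invariant chain, was at 91.4, 99 and 102 FPKM in sham and 346, 339 and 337 in SNI. Complement genes rose in 23 of 28 members and fell in 1. C3, the central component, rose from 1.43, 1.56 and 1.43 FPKM to 9.55, 8.88 and 9.37, and Cd55, which restrains complement, fell by 0.36. Of 33 cytokine and chemokine genes, 25 rose and 3 fell (median 1.29, also with the 3 members near 0 in sham at their count ratios). Cxcl13, a chemokine for B cells, rose from 11.7, 14.1 and 11.4 FPKM to 70.6, 68.0 and 68.4, and was the most abundant of the list by its mean over the libraries. Markers of T and NK cells were low: 9 of 20 passed the filter, of which 6 rose (3 with DESeq2, without sham replicate 3 or without SNI replicate 1), and Cd3e, of the T cell receptor complex, was at 0.33 to 0.54 FPKM in sham and 0.91 to 1.44 in SNI. Of the B cell and plasma cell markers, 2 of 8 in the table passed the filter and neither was called. Interferon-response genes rose in 13 (39.4%, against 23.3% of all members) and fell in 6 (18.2%, against 22.4%) of 33 members, a median of 0.13. Gbp2 rose by 1.22, and Ifit1, with shared reads, fell by 0.91.

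Red cell transcripts were also higher in SNI. Of 12 tested erythroid genes, 11 rose and 1 fell (median log2 fold change 1.75), and their summed FPKM was 676.6 to 794.9 in sham and 2086 to 2176 in SNI. Hba1, with shared reads, was at 346, 425 and 415 FPKM in sham and 1125, 1135 and 1098 in SNI, and Hbb, also with shared reads, at 86.3 to 90.9 and 284 to 292. Neutrophil and mast cell markers rose in 8 of 13 tested members and none was called lower, with S100a9 at 76.3 to 78.8 FPKM in sham and 118 to 140 in SNI. The other 5 were not called, and none of them had a log2 fold change above 0 (lowest -1.45). The part of blood left in the ganglia in the rise of macrophage, MHC class II, complement, cytokine and neutrophil genes was not tested.

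Of 32 fibroblast and collagen genes, 13 rose (40.6%) and 6 fell (18.75%, against 22.4% of all members), with a median of 0.06. Timp1, an inhibitor of matrix proteases, rose from 48.1, 60.8 and 52.6 FPKM to 238, 228 and 236, whereas Col1a1, the chief fibrillar collagen, overlapped between the groups at 68.3 to 73.2 and 70.3 to 71.8 FPKM (adjusted p = 0.58). Of 17 endothelial markers, 4 rose (23.5%, against 23.3% of all members) and 2 fell (11.8%, against 22.4%), and Pecam1 was at 7.25 to 7.78 FPKM in sham and 7.91 to 8.61 in SNI and was not called (adjusted p = 0.25). Cell cycle genes rose in 16 of 30 tested members and 1 fell, from low levels: Top2a was at 0.29 to 0.35 FPKM in sham and 1.0 to 1.15 in SNI, and Mki67 at 0.41 to 0.57 and 0.99 to 1.23. Of 8 tested genes of mesothelium and of the arachnoid barrier, the sheath that continues from the spinal meninges, 6 fell and 1 rose. Slc47a1, a transporter, fell from 3.19, 3.03 and 2.58 FPKM to 0.56, 0.44 and 0.61, and Cldn11, a tight junction gene also made by glia, fell by 1.13 on the log2 scale. The summed FPKM of this list, most of it Ptgds, was 1081 to 1192 in sham and 275.2 to 284.9 in SNI. Whether the amount of sheath collected with the ganglia differed was not tested. Cytosolic ribosomal protein genes were mostly not called (60 of 75 members), with a median of 0.05. Of the 75, 43 had fractional counts in at least 4 of the 6 libraries.

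**Figure D4:**
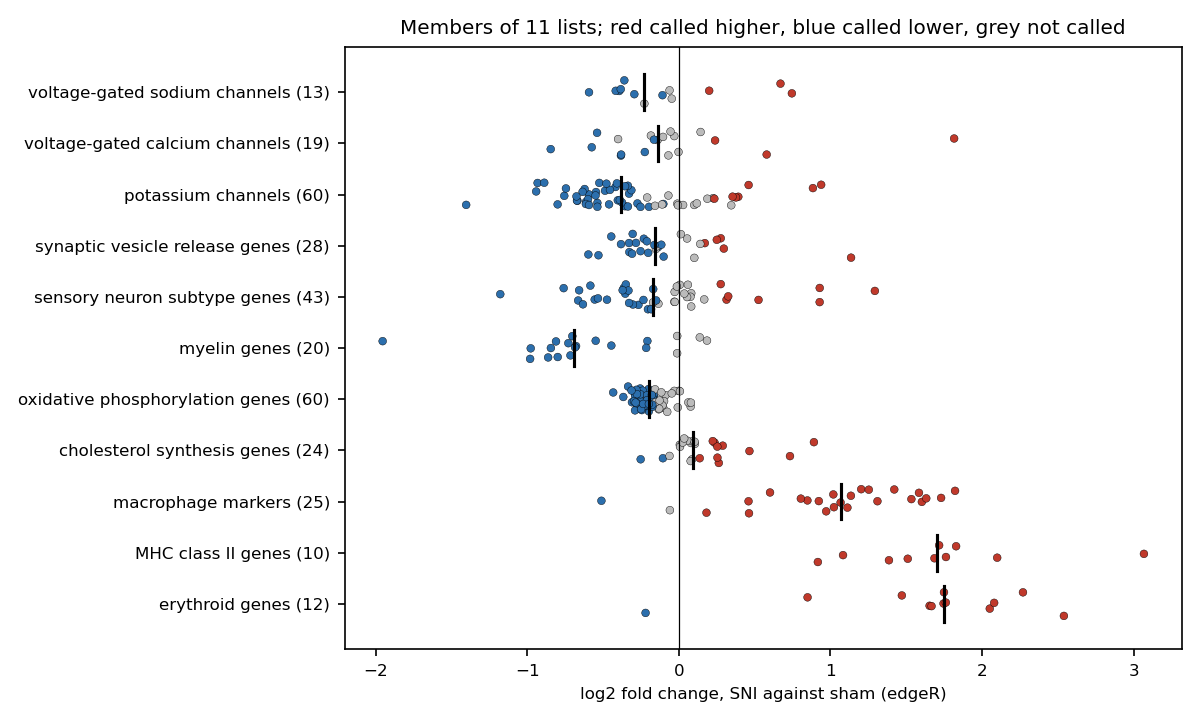
Log2 fold change (edgeR) of every tested member of 11 lists, 1 point per gene, red where called higher, blue where called lower and grey where not called; the black bar is the list median. The medians run from -0.69 for myelin genes to 1.75 for erythroid genes, and the potassium channel list spans -1.40 to 0.94.

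The promoters of the genes that rose most were examined for the motifs of 2 factor families named above. AP-1, the dimer of Fos and Jun proteins, binds TGAGTCA, which reads TGACTCA on the opposite strand, and factors of the CREB and ATF families bind the cyclic AMP response element (CRE), TGACGTCA, which reads the same on both strands. Neither motif contains the other. RefSeq promoters (build GRCr8), searched over the 250 bases before each gene's start, were matched by gene for 11140 of the 14305 members. An AP-1 motif was present in 3.21% of all these promoters and a CRE in 2.85%.

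Among the 52 promoters of genes that rose by 3 or more on the log2 scale, 12 (23.1%) held an AP-1 motif and 4 (7.69%) a CRE. The share with AP-1 was 5.88% among rises of 2 to 3, 5.00% among rises of 1 to 2 and 2.81% among genes not called. Among the 69 promoters of genes that fell by 1 or more, 5 (7.25%) held one. Genes low in sham had a somewhat higher share in general: 4.07% of the 344 promoters of genes with a mean sham FPKM below 1 that were not called held AP-1. Of the 12 promoters, 5 belonged to genes with at most 3 counts in every sham library, among 20 such genes, and 7 to the other 32. The groups by size of change were drawn after the values were seen, and a match is a description and not a site of binding. The stretches around some of these motifs are shown, 5′ to 3′ in the direction of the gene, with the motifs in capitals, because they are the letters that the counts rest on. Mmp3 encodes a matrix protease, Gzmb a granzyme of cytotoxic lymphocytes and Cxcl14 a chemokine.
Sprr1a (AP-1, both copies, chr2:180752726-180752812, minus strand): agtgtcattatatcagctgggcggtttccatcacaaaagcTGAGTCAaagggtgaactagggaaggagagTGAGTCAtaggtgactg
Hamp (AP-1, chr1:95300332-95300418, minus strand): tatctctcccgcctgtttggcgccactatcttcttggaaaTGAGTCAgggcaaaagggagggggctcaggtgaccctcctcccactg
Mmp3 (AP-1, chr8:12925170-12925256, plus strand): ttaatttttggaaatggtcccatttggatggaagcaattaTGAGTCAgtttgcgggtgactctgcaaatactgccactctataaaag
Gzmb (AP-1, chr15:34462574-34462660, minus strand): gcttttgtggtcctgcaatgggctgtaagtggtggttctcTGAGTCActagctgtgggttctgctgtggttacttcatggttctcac
Cxcl14 (AP-1, chr17:8323011-8323097, plus strand): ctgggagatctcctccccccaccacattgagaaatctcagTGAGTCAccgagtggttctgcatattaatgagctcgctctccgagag
Il6 (CRE, chr4:5894690-5894777, minus strand): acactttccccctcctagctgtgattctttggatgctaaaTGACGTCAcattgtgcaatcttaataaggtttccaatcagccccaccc
Ucn (CRE, chr6:30957936-30958023, plus strand): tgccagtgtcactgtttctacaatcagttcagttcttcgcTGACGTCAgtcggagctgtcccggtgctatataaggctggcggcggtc

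The AP-1 copies of Sprr1a began 147 and 117 bases before its start and that of Hamp 107 bases before, and these were 2 of the 9 genes among the 12 largest rises that matched a promoter. Mmp3 rose from 2 summed counts in sham to 112 in SNI (ratio 55.99, interval 15.14 to 468.0), Gzmb from 0, 0.26 and 0 FPKM to 1.49, 2.96 and 3.55, and Cxcl14 from 0.37, 1.0 and 0.67 FPKM to 8.83, 8.11 and 9.06. Il6 rose from 1 summed count to 162 (ratio 162.0, interval 28.66 to 6437).

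**Figure D5:**
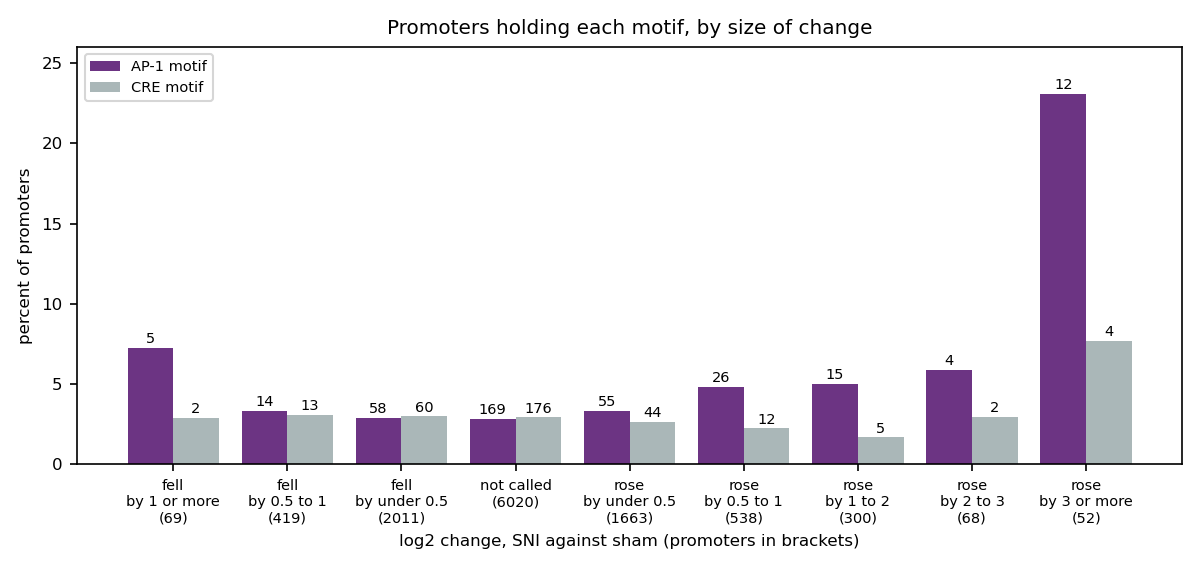
Percent of RefSeq promoters (250 bases before the gene start) that hold an AP-1 motif or a CRE, by direction and size of the log2 change of the gene, with the number of promoters in brackets and the number with the motif above each bar. The AP-1 share is 23.1% (12 of 52) for rises of 3 or more and between 2.81% and 7.25% in all other bins.

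In the third group, SNI + G15, which was not part of the comparison, the leading genes had these levels. Vip was at 24.2, 23.8 and 27.6 FPKM, Npy at 762, 832 and 846 and Gal at 210.2, 225.6 and 239.7. Ptgds was at 217, 221 and 208 FPKM and Nefl at 2104, 2155 and 2196. Serpina3n was at 29.3, 29.3 and 27.9 FPKM and Ccl21 at 13.2, 14.2 and 13.8, both between the sham and SNI ranges, and Hba1 was likewise between them at 643.9 to 771.6. The values of Gal also lay between its sham and SNI ranges. The values of Cxcl14, 33.3 to 34.7 FPKM, and those of Npy lay above both ranges of each gene. The summed FPKM of the erythroid list, 1254 to 1432, lay between its sham and SNI ranges. That of the macrophage markers, 1609 to 1676, lay above both of its ranges.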

How the data were processed

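RNA was sequenced as paired reads of 150 bp from DRG of sham, SNI and SNI + G15 rats, with 3 libraries per group. The authors deposited a gene table with estimated counts, which were not normalized and need not be whole, and FPKM values, normalized by the authors for transcript length and library size. The columns named for a control were taken as sham, the group left over by the other names. The aligner and annotation are not given in the sources used here. The submitters' processing notes name the mouse builds GRCm38 and mm10, although the gene identifiers are NCBI identifiers of rat genes, and the labels' extraction text names macrophages and another library kit than the methods. Gene positions were therefore not taken from the deposited values, and 13688 members matched the RefSeq table of GRCr8.

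The estimated counts, rounded to integers, were tested in R 4.3.3 by edgeR 4.0.16 (TMM normalization, quasi-likelihood test, Benjamini-Hochberg adjustment over 14305 genes), with the 6 sham and SNI libraries in the fit. The methods name DESeq2, which was run as an alternative. The common biological coefficient of variation was 0.051. The labels do not say that the libraries of a group came from separate animals, and p-values measure the spread between these libraries, which may in part be technical. No pair of libraries agreed within sampling noise (chi-square per degree of freedom 2.70 to 4.90). Alternatives used DESeq2 1.42.0, limma 3.58.1 on log2 FPKM (pseudocounts 1 and 0.1), other normalizations and gene filters, all 9 libraries, a replicate block and each library left out.

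The members and the gene lists were chosen with earlier results of these data known. Genes named are the 12 largest rises and falls among called genes with a symbol other than a LOC, RGD or AABR identifier. These had to have no overlap between groups and a mean of at least 5 FPKM in the higher group. Among called genes with such a symbol, the 8 largest gains and losses of FPKM were also named. Up to 4 members per direction and the most abundant member of each list, and defining markers, complete the rule. Some genes this rule names are not reported here. Mmp3 and the choice of promoters printed were added after the values were seen. Genes at or under 3 counts in every sham library are given by a bound or by a ratio of summed counts scaled to depth. Promoters came from RefSeq (GRCr8). Deposited TPM values, group averages, transcript values and the authors' plot and correlation tables were not used.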

Additional observations from a re-analysis of the deposited data

How the results depend on the processing

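The number of called genes was 6537, and between 4702 and 6749 in the 11 alternatives that kept every library: 5343 with DESeq2, 6105 and 6085 with limma on log2 of FPKM plus 1 and plus 0.1, 6436 with library totals only and 4702 of the 9088 genes with whole counts. Leaving out 1 library gave 5382 to 6237. The share of called genes that rose was 51.0% and ranged from 49.1% to 58.2%. The number with a log2 change of 1 or more, 702, was 333 (294 higher, 39 lower) with limma on log2 of FPKM plus 1, where a pseudocount shrinks low genes, and 439 (375 higher, 64 lower) among genes with whole counts, where fewer genes were tested. With all genes of at least 1 count, 194 were lower by at least 1.

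Of the 228 called genes selected by the naming rule, 156 had a value in all 17 alternatives, and 142 of these kept their call and direction in each. The other 72, shared-read genes, had no value in the alternative restricted to whole counts, and 67 of them kept call and direction in all the others. None of the 228 changed direction. The 19 that lost the call in at least 1 alternative included Apoe, Atf4, Gchfr, Id2, Stx1a, Tmsb4x, Nkg7 and Pcna. Called T and NK cell markers numbered 6, and 3 with DESeq2 and 3 to 6 with 1 library left out. Ribosomal protein genes called higher numbered 14, and 7 with all 9 libraries and 6 to 28 with 1 library left out (28 without sham replicate 2, 6 without sham replicate 1, sham replicate 3 or SNI replicate 1, 7 without SNI replicate 2). Genes not called whose sign turned were Col1a1 (0.00393 and 0.00399 with limma plus 1 and 0.1, 0.00403 with library totals, -0.0527 to 0.00254 with 1 library left out), Gabra2 (0.00375 and 0.00385 with limma), Calca (-0.0106 to 0.0572 with 1 library left out) and Jund (-0.118 to 0.0487 with 1 library left out).

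The replicate numbers did not pair the libraries: deviations of same-numbered sham and SNI libraries correlated at -0.065, -0.012 and 0.014 over genes, and not every library correlated best with its own number. With the replicate block 6440 genes were called. Depth limits values near 0, where a count of 3 is the floor.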

Other observations

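Some shared-read genes had values close to 0 in one group. Rpl30, a ribosomal protein gene, was at 1.55, 6.09 and 0 FPKM in sham, 45.9, 39.9 and 36.7 in SNI and 177, 199 and 214 in SNI + G15, with fractional counts in 8 libraries. Ndufa10l1 was at 4.49, 5.36 and 6.79 FPKM in SNI + G15. Rabif and Aph1b had no count in any sham library and summed counts of 210 and 249 in SNI, at least 23.3-fold and 27.7-fold higher by mean count against the floor of 3, with fractional counts in 2 and 1 libraries. These genes were picked after their values were seen.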
